A study of Mus musculus with 2 samples.

Results

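The miR-23/27/24 clusters are a duplicated pair of microRNA (miRNA) loci, each with a miR-23, a miR-27 and a miR-24 hairpin. The genes were taken by name from the GENCODE M21 annotation of the gene IDs in the count tables: Mir23a, Mir27a and Mir24-2 on chromosome 8 (cluster a), and Mir23b, Mir27b and Mir24-1 on chromosome 13 (cluster b). These are 6 of 2202 miRNA genes, and each had 10 or more reads in both libraries, as 321 genes did.

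The samples were 2 small RNA libraries of heart tissue from male adult mice of strain B6CASTF1/J, aged 18 to 20 months, with no treatment named. They form 1 group, so no conditions were compared. The libraries carry the labels biological replicate 1 and 2 and separate biosample records, but a single donor record, so the spread between them may be technical and does not measure the spread between animals. Replicate 1 had 3037063 reads in miRNA genes and replicate 2 had 5284446. Levels are given as counts per 1000000 miRNA gene reads (CPM). The cardiomyocyte miRNAs Mir208a and Mir499 were present, at 7169 ± 2807 and 5523 ± 50.4 CPM (SD, n = 2).

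A miRNA is cut from a hairpin in a longer transcript, and its seed, bases 2 to 8, pairs with target messages and lowers their output. Hairpins of a cluster are usually cut from a shared transcript, while the level of each mature miRNA also depends on how it is cut and how stable it is. In the heart and its vessels these miRNAs are known for roles in endothelial sprouting and angiogenesis. miR-23a is also known as a miRNA that promotes cardiomyocyte hypertrophy, miR-27 as a repressor of fat cell differentiation, and miR-24 as a brake on cardiomyocyte apoptosis.

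The mature sequences below come from RefSeq (GRCm38.p6) and show how far the clusters can be told apart by sequence. Capitals mark the seed. All 6 hairpins and 10 distinct mature miRNAs of these genes were matched. miR-23b-3p is named only.
miR-23a-3p (Mir23a): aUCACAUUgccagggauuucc
miR-27a-3p (Mir27a): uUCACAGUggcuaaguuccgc
miR-27b-3p (Mir27b): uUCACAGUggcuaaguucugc
miR-24-3p (Mir24-2 and Mir24-1): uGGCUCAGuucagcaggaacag
miR-24-2-5p (Mir24-2): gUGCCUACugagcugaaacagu
miR-24-1-5p (Mir24-1): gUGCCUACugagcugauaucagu

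The 3p arms of miR-27a and miR-27b differ by 1 base, C19U, counted from 1 at the 5′ end with the base of miR-27a first, and share their seed. miR-24-3p is 1 sequence made from both loci, so a read of it alone cannot be placed at Mir24-2 or Mir24-1. The 5p arms of the miR-24 genes share their first 16 bases and differ after them. The longest stretch common to both hairpins was 20 bases for Mir23a and Mir23b, 20 bases for Mir27a and Mir27b, and 28 bases for Mir24-2 and Mir24-1. In each of the 6 hairpins the next longest stretch shared with any other miRNA gene was at most 13 bases. The deposited tables count reads per gene, so the arms cannot be separated, and reads that map to several places are given to no gene. That includes reads within a stretch that both hairpins of a pair share, so every ratio of a pair below describes reads placed at 1 locus.

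The seeds group the mature miRNAs by the targets they could share. The seeds of miR-23a-3p and miR-27a-3p have the same base at 6 of 7 positions, and neither matches the seed of miR-24-3p at any position. No miRNA of the table outside these clusters has the seed of miR-27-3p. Outside the clusters, Mir6369, Mir6410, Mir6413 and Mir5124b encode a miRNA with the seed of miR-24-3p, and each had 0 reads in both libraries, which allows up to 0.988 CPM in replicate 1 and 0.568 CPM in replicate 2.

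Both clusters have the order miR-23, miR-27, miR-24 on the plus strand of the mouse build GRCm38 (mm10), with different spacing. Cluster a spans 404 bases. Its hairpins are Mir23a (ENSMUSG00000065611.1, chromosome 8, 84208518 to 84208592), Mir27a (ENSMUSG00000065444.1, 84208672 to 84208758) and Mir24-2 (ENSMUSG00000065541.1, 84208815 to 84208921). Mir23a and Mir27a lie in no other annotated gene, while the last 2 bases of Mir24-2 overlap an exon of the long noncoding RNA gene Gm26532. Cluster b spans 792 bases inside the protein-coding gene 2010111I01Rik, and on the opposite strand inside an intron of Fancc, a DNA repair gene. Its hairpins are Mir23b (ENSMUSG00000065599.2, chromosome 13, 63300484 to 63300557), Mir27b (ENSMUSG00000065475.2, 63300712 to 63300784) and Mir24-1 (ENSMUSG00000105904.1, 63301208 to 63301275). All 3 lie in introns of the 4 protein-coding transcripts of 2010111I01Rik that span them. Other transcripts of that gene have an exon over Mir27b (1 transcript) and over Mir24-1 (4 transcripts). The gap before the miR-24 hairpin is 56 bases in cluster a and 423 bases in cluster b.

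**Figure D1:**
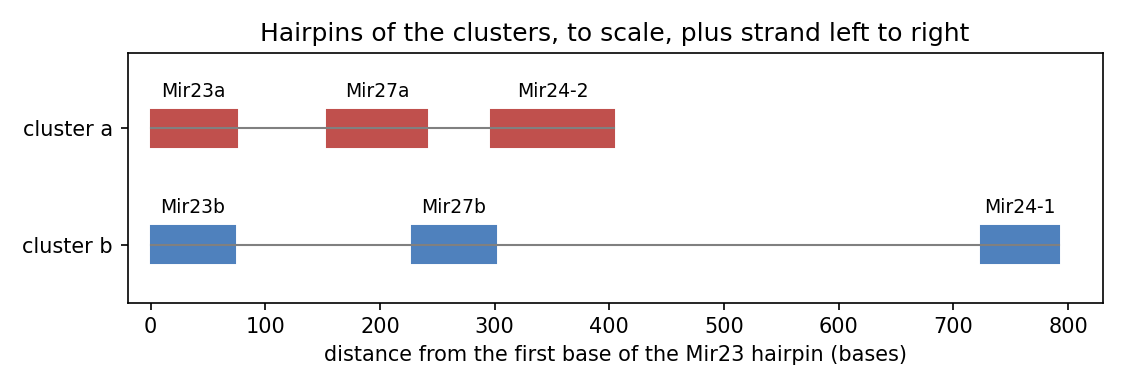
Position of the hairpins of cluster a (upper line) and cluster b (lower line), in bases from the first base of the Mir23 hairpin, drawn to scale. The order is the same, and the gap before the miR-24 hairpin is 56 bases in cluster a and 423 bases in cluster b.

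The clusters gave similar totals of counted reads. Cluster a had 201878 reads in replicate 1 and 224361 in replicate 2, and cluster b had 185569 and 241259. As shares of the counted reads in miRNA genes these were 5.446% ± 1.698 for cluster a and 5.34% ± 1.09 for cluster b (SD, n = 2 each). The total of cluster a over that of cluster b was 1.09 in replicate 1 and 0.930 in replicate 2, so the clusters changed places between the libraries. In log2 this ratio averaged 0.01 ± 0.16 (SD, n = 2), smaller than its spread.

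The miR-23 genes held most of the counted reads of both clusters. Mir23a had 193709 reads (63782 CPM) in replicate 1 and 208942 reads (39539 CPM) in replicate 2. Mir23b had 170343 reads (56088 CPM) in replicate 1 and 199345 reads (37723 CPM) in replicate 2. Both genes were higher in replicate 1, and the levels of Mir23a and Mir23b overlapped across the libraries. Within each library Mir23a was slightly ahead: the ratio Mir23a over Mir23b was 1.137 in replicate 1 (95% exact interval 1.130 to 1.145) and 1.048 in replicate 2 (1.042 to 1.055). These intervals cover counting error only. In log2 the ratio averaged 0.13 ± 0.08 (SD, n = 2), a small difference with the same sign in both libraries. In CPM the genes averaged 51660 ± 17142 (Mir23a) and 46906 ± 12986 (Mir23b; SD, n = 2 each), a spread that includes the shift both genes share between the libraries.

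For miR-27 the order of the clusters was the opposite one. Mir27a had 7414 reads (2441 CPM) in replicate 1 and 14361 reads (2718 CPM) in replicate 2. Mir27b had 14847 reads (4889 CPM) in replicate 1 and 41326 reads (7820 CPM) in replicate 2. Both libraries of Mir27a lay below both libraries of Mir27b, with no overlap. The ratio Mir27a over Mir27b was 0.499 in replicate 1 (95% exact interval 0.486 to 0.514) and 0.348 in replicate 2 (0.341 to 0.354). In log2 it averaged -1.26 ± 0.37 (SD, n = 2), with the same sign in both libraries. Reads that lie within the first 18 bases of miR-27-3p match both loci and are in neither count, so this ratio too describes reads placed at 1 locus.

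The miR-24 genes had the lowest counts of both clusters, with cluster a ahead. Mir24-2 had 755 reads (249 CPM) in replicate 1 and 1058 reads (200.2 CPM) in replicate 2. Mir24-1 had 379 reads (125 CPM) in replicate 1 and 588 reads (111 CPM) in replicate 2. Both libraries of Mir24-2 lay above both libraries of Mir24-1. The ratio Mir24-2 over Mir24-1 was 1.99 in replicate 1 (95% exact interval 1.76 to 2.26) and 1.80 in replicate 2 (1.63 to 1.99). In log2 the ratio averaged 0.92 ± 0.10 (SD, n = 2). Since reads of miR-24-3p that match both loci equally are in neither count, this ratio describes reads placed at 1 locus and says nothing of the total of miR-24-3p.

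With 2 libraries, an exact sign-flip test of a ratio cannot go below p = 0.5, so none of the 3 ratios was tested. Of the 3 pairs, cluster a was ahead in both libraries at miR-23 and miR-24, and cluster b in both at miR-27.

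**Figure D2:**
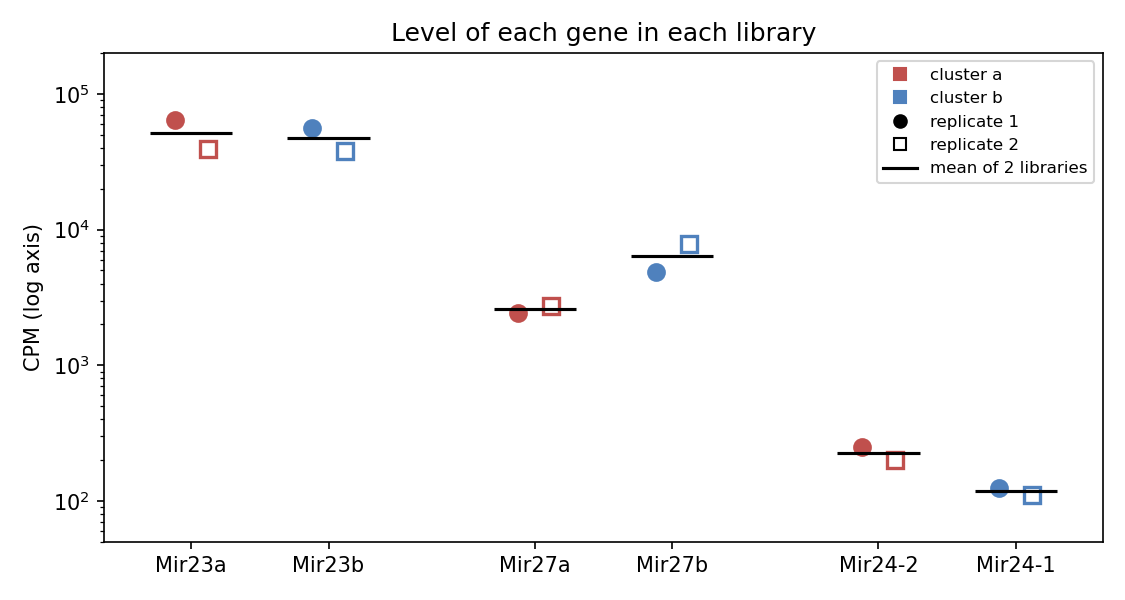
CPM of each gene on a log axis, in pairs of cluster a (red) and cluster b (blue), with filled circles for replicate 1, open squares for replicate 2 and a line at the mean of the 2 libraries. The miR-23 genes overlap, Mir27a lies below Mir27b and Mir24-2 lies above Mir24-1.

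**Figure D3:**
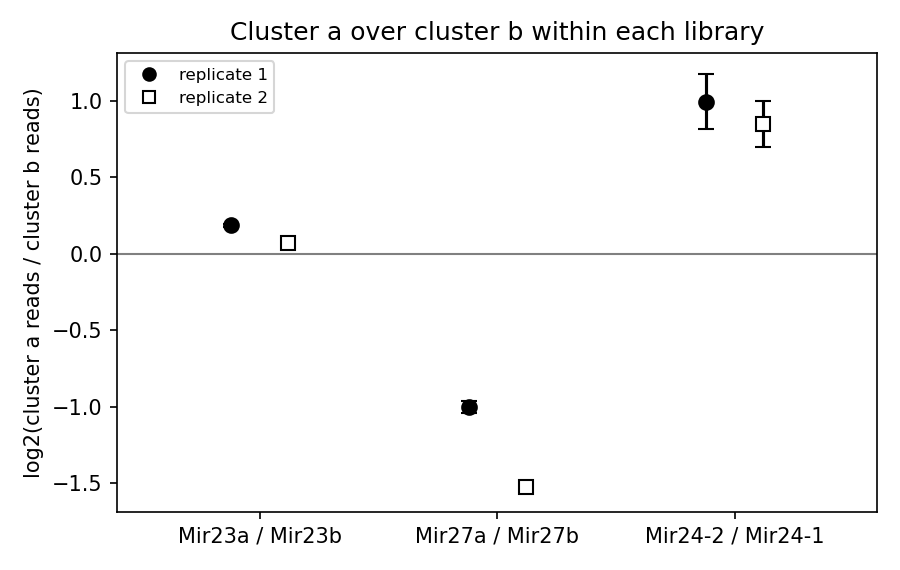
Log2 ratio of cluster a reads to cluster b reads for each pair within each library, with 95% exact intervals for counting error (smaller than the symbol for miR-23). The miR-23 ratios are 0.19 and 0.07, the miR-27 ratios -1.0 and -1.52 and the miR-24 ratios 0.99 and 0.85 in replicates 1 and 2.

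The ratio of cluster a to cluster b was not the same in the 2 libraries. For miR-27 it was 1.44 times as high in replicate 1 as in replicate 2 (95% Wald interval 1.39 to 1.49), the largest shift of the 3 pairs. For miR-23 it was 1.085 times as high (1.075 to 1.095). For miR-24 it was 1.11 times as high, with an interval of 0.944 to 1.30 that includes no shift. All 3 point estimates therefore lay above 1, that is, toward cluster a in replicate 1.

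Within each cluster the order of counted reads was miR-23, miR-27, miR-24 in both libraries. The place of miR-24 in it is that of reads placed at 1 locus: reads of miR-24-3p that match both loci are missing from Mir24-2 and Mir24-1, so the level of miR-24-3p itself cannot be ranked from these counts. The 3p mature miRNAs printed above are 21 or 22 bases long, and levels were compared without dividing by length. In cluster a, Mir23a exceeded Mir27a 26.1-fold in replicate 1 (95% exact interval 25.5 to 26.7) and 14.5-fold in replicate 2 (14.3 to 14.8). In cluster b, Mir23b exceeded Mir27b 11.5-fold in replicate 1 (11.3 to 11.7) and 4.82-fold in replicate 2 (4.77 to 4.88). The mean log2 ratios were 4.29 ± 0.60 in cluster a and 2.90 ± 0.88 in cluster b (SD, n = 2 each), so the step from miR-23 to miR-27 was smaller in cluster b in both libraries.

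The step from miR-27 to miR-24 went the other way, in counts that lack the shared miR-24-3p reads on the miR-24 side. Mir27a exceeded Mir24-2 9.82-fold in replicate 1 (95% exact interval 9.11 to 10.6) and 13.6-fold in replicate 2 (12.8 to 14.5). Mir27b exceeded Mir24-1 39.2-fold in replicate 1 (35.4 to 43.5) and 70.3-fold in replicate 2 (64.8 to 76.4). In log2 these were 3.53 ± 0.33 in cluster a and 5.71 ± 0.60 in cluster b (SD, n = 2 each), and the larger step was that of cluster b in both libraries. With the same limit, Mir23a exceeded Mir24-2 257-fold and 197-fold, and Mir23b exceeded Mir24-1 449-fold and 339-fold, in replicates 1 and 2.

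As shares of the cluster's counted reads, Mir23a took 94.5% ± 2.00, Mir27a 5.04% ± 1.93 and Mir24-2 0.423% ± 0.0690 of cluster a (SD, n = 2 each). Mir23b took 87.2% ± 6.48, Mir27b 12.6% ± 6.45 and Mir24-1 0.224% ± 0.0279 of cluster b (SD, n = 2 each). In both clusters the share of the miR-23 gene was lower in replicate 2 and that of the miR-27 gene higher. Of cluster a, Mir27a took 3.67% in replicate 1, with a Wilson 95% interval of 3.59 to 3.76, and 6.40% in replicate 2 (6.30 to 6.50). The share of Mir27b in cluster b was 8.0% in replicate 1 (7.88 to 8.13), against 17.1% in replicate 2 (17.0 to 17.3).

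**Figure D4:**
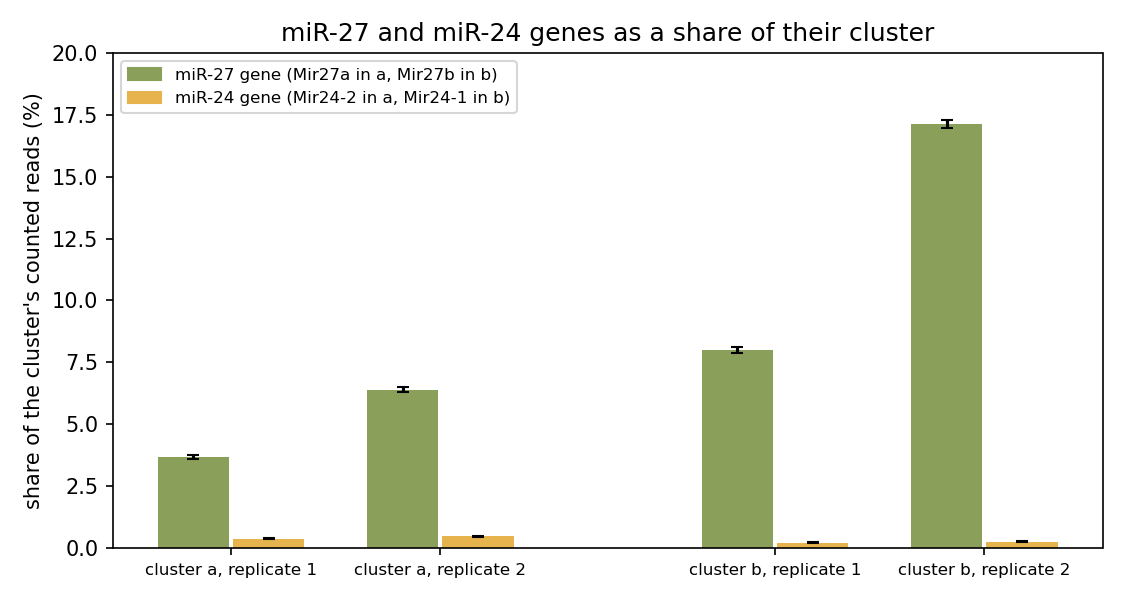
Share of the cluster's counted reads (percent, axis from 0) taken by the miR-27 gene (green) and the miR-24 gene (yellow) in each cluster and library, with 95% Wilson intervals. The rest of each cluster's counted reads is the miR-23 gene, and reads that match both loci of a pair are in no share. The miR-27 share is higher in cluster b than in cluster a, and higher in replicate 2 than in replicate 1, in every such pair.

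Across all 6 genes the order of counted reads was Mir23a, Mir23b, Mir27b, Mir27a, Mir24-2 and Mir24-1 in each library. By counted reads, Mir23a ranked 5 and Mir23b 6 among all miRNA genes in replicate 1, and 8 and 10 in replicate 2. Reads that map to several places are left out of these ranks, so a miRNA made from identical copies can rank too low. The ranks therefore do not order the mature miRNAs of the heart. Mir27b ranked 30 and 22, Mir27a 42 and 44, Mir24-2 103 and 114, and Mir24-1 130 and 138, in replicates 1 and 2, the miR-24 genes without the reads their loci share. Of neighbours in this order, only Mir23a and Mir23b overlapped in CPM across the libraries, although Mir23a was ahead within each library.

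Between the libraries, the paralogs of each family had log2 ratios of the same sign, whichever cluster they came from, though Mir24-1 did not pass the test. Each gene with 10 or more reads in the pair of libraries (424 genes) was tested by a two-sided exact binomial test against the ratio of the library totals. P-values were adjusted over all of these genes (Benjamini-Hochberg), and 0.05 was the threshold. It compares the 2 libraries beyond counting error. Of the 6 genes, 3 were higher in replicate 1, where 21.9% of all tested genes were called, and 2 were higher in replicate 2, where 30.9% were called. Log2 ratios are replicate 1 over replicate 2.

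Both miR-23 genes were higher in replicate 1. Mir23a had a log2 ratio of 0.69 (95% exact interval 0.68 to 0.70) and Mir23b of 0.57 (0.56 to 0.58), with adjusted p-values of the exact binomial test too small to be held as a number. Both miR-27 genes were higher in replicate 2: Mir27b had a log2 ratio of -0.68 (-0.71 to -0.65), again with a p-value too small to be held, and Mir27a of -0.15 (-0.20 to -0.11; adjusted p = 2.33e-13, exact binomial test). Mir24-2 was higher in replicate 1 by 0.31 (0.18 to 0.45; adjusted p = 1.91e-05, exact binomial test). Mir24-1 had a log2 ratio of 0.17 and did not pass (-0.02 to 0.35; adjusted p = 0.139, exact binomial test).

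The 6 genes differed by amounts close to those of the other tested genes. The median absolute log2 ratio was 0.44 over the 6 genes and 0.50 over all 424 tested genes, and the median log2 ratio was 0.24 over the 6 genes and -0.07 over all tested genes. With the common dispersion of the pair in the exact test of edgeR (biological coefficient of variation 40.5%), 0 of the 6 genes were called, where 2.83% of tested genes were. Each of the 6 had an adjusted p of 1 in that test of edgeR, and 0 of the 6 had an unadjusted p under 0.05. The dispersion was estimated from the same 2 libraries that the test compares, so it already holds their difference. The lack of a call therefore does not show that the levels were equal.

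**Figure D5:**
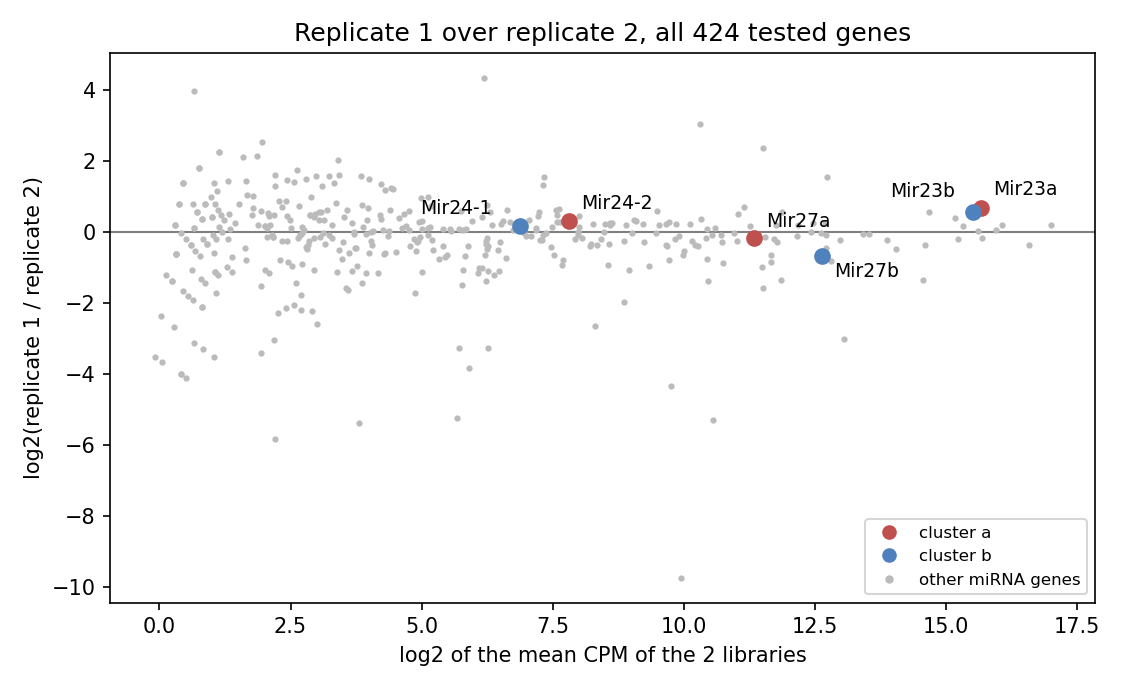
Log2 ratio of replicate 1 to replicate 2 (vertical) against the log2 of the mean CPM (horizontal) for all 424 tested miRNA genes, with cluster a in red, cluster b in blue and the other genes in grey. The miR-23 and miR-24 genes lie above 0 (Mir24-1 within counting error of 0) and the miR-27 genes below it, all within the range of the other genes.

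Levels of cell type miRNAs also differed between the libraries, and their part in the differences above was not tested. In bulk tissue, fewer cells of a type and less RNA per cell cannot be told apart. Of the endothelial list, 3 of 3 tested members (Mir126a, Mir221 and Mir222) were higher in replicate 2. The list took 8.68% of the counted reads in miRNA genes in replicate 1 and 11.5% in replicate 2. Mir126b, with 1 and 8 reads, had too few to test. Of the erythroid list, 2 of 3 members were higher in replicate 1 and 1 in replicate 2, with shares of 0.820% and 0.254%. Of the fibroblast list, 2 of 4 tested members were higher in replicate 2 and 1 in replicate 1, with shares of 0.385% and 1.90%. Mir199a-1 had 0 and 3 reads and Mir199a-2 had 12 and 37. They are a pair of genes with 1 mature miRNA, and reads that match both are in neither count nor in the share. The list member Mir21a was at 1899 CPM in replicate 1 and 15190 CPM in replicate 2, most of the list in replicate 2. Of the cardiomyocyte list, 2 of 3 members were higher in replicate 2, with shares of 1.08% and 1.48%. Of the smooth muscle list, 1 of 2 members was higher in replicate 1, with shares of 4.57% and 4.06%. These calls come from the same exact binomial test, with 21.9% of all tested genes called higher in replicate 1 and 30.9% called higher in replicate 2, and the shares are of replicates 1 and 2 in turn. With the common dispersion in edgeR, Mir21a (adjusted p = 0.0366) and Mir144 (adjusted p = 0.0271) alone of these lists were called. These lists do not hold all large differences between the libraries. Outside them, the genes higher in replicate 2 included Mir205 (7 and 10372 reads, log2 ratio -9.73) and Mir31 (228 and 15421 reads, -5.28), among others. Mir301 (422 and 36 reads, 4.35) was higher in replicate 1. Each of these was also called in edgeR.

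The genes nearest to each member were found by the distance of log2 CPM over the 2 libraries, which is too few to show a pattern. Mirlet7d (0.47) and Mir143 (0.55) were nearest to Mir23a, and Mir143 (0.36) and Mirlet7d (0.42) to Mir23b. Mir423 (0.12) and Mir328 (0.26) were nearest to Mir27a, and Mir100 (0.23) and the cardiomyocyte miRNA Mir208a (0.24) to Mir27b. Mir378d (0.25) and Mir92-2 (0.28) were nearest to Mir24-2, and Mir16-2 (0.16) and Mir467e (0.21) to Mir24-1. Mir208a was at 5184 CPM in replicate 1 and 9154 CPM in replicate 2, beside 4889 and 7820 CPM of Mir27b.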

How the data were processed

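The authors deposited 1 table of raw read counts per library, with 3 count columns (either strand and each strand alone) for 2202 miRNA genes and 4 summary lines, mapped to mm10 per the labels with GENCODE M21 as annotation per the deposited text. Aligner, counter, versions and trimming were not given in the sources used here. The tables name no strand: the one with the larger total over the miRNA genes served as sense. Summary lines stayed out of library totals. Reads that mapped to several places were given to no gene; they were 40.7% (replicate 1) and 32.5% (replicate 2) of all reads.

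Ratios within a library have exact (Clopper-Pearson) intervals and shares Wilson intervals, at 95%. The shift of such a ratio between libraries has a Wald interval. Without molecular identifiers, intervals and the floor of 3 reads cover counting error only. The exact binomial test used scipy 1.17.1. edgeR 4.0.16 (R 4.3.3) gave TMM factors, the common dispersion (321 genes with 10 or more in each library) and an exact test with it, and DESeq2 1.42.0 gave size factors. Both tests were run on simulated counts. Those for the binomial test were drawn with counting error only, and those for edgeR with a set dispersion. Neither run shows how the tests perform on this pair of libraries.

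The named genes were the 6 members, the 2 genes nearest to each by level, genes with a shared seed, overlapping genes, 5 cell type lists and 13 gene pairs with 1 mature miRNA. Mir205, Mir31 and Mir301 were added after their values were seen. The members and lists were chosen with earlier results of these data known.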

Additional observations from a re-analysis of the deposited data

Results flagged for a closer look

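Reads outside the sense counts were present at the miR-24 genes. On the strand opposite to Mir24-1, 46 reads in replicate 1 and 94 in replicate 2 exceeded the 3 that a count of 0 allows. Opposite to Mir24-2 there were 5 reads in replicate 1 and 0 in replicate 2. Mir3074-1 (chromosome 13, 63301199 to 63301283) and Mir3074-2 (chromosome 8, 84208825 to 84208907) are annotated on that strand over Mir24-1 and Mir24-2, and these reads are their sense counts. The other 4 genes of the clusters had 0 reads on the opposite strand in both libraries.

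Reads mapped to several places, which no gene count holds, numbered 3857758 in replicate 1 and 6355706 in replicate 2, or 1.27 and 1.20 times the reads in miRNA genes. The tables do not say how many of them came from these clusters.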

How the results depend on the processing

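The 3 ratios of cluster a to cluster b and the 4 steps between neighbours in the order of levels kept their direction in each library alone, and those of the miR-23 and miR-27 genes also in the count column for either strand. In that column Mir24-2 and Mir24-1 have 0 reads in both libraries, so their ratios have no value there, and Mir23a is at 69644 CPM. Left out in turn, the libraries gave 0.07 to 0.19 for miR-23, -1.52 to -1.0 for miR-27 and 0.85 to 0.99 for miR-24 (log2). Per 1000000 of all reads of the table, in place of those in miRNA genes, Mir23a had 15566 and Mir24-1 35.0.

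Between the libraries, TMM or DESeq2 size factors changed no call of the 6 genes. Under the exact test of edgeR with the pair's common dispersion, 5 calls were lost (adjusted p = 1 for each), at log2 ratios of 0.72 (Mir23a), 0.60 (Mir23b), 0.34 (Mir24-2), -0.13 (Mir27a) and -0.65 (Mir27b), and 12 genes were called in place of 224. The other settings gave 208 to 226 genes. That dispersion comes from the same pair of libraries. Counting error limits Mir24-1 most, with 379 and 588 reads. No paired analysis was possible because the labels give 1 group.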

Other observations

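The counts of Mir24-2 and Mir24-1 can be set beside those of other miRNAs made from a pair of loci. In 13 such pairs chosen by name, of which 11 had mature entries for both genes in the RefSeq table and all 11 of those had an identical mature sequence, the 26 genes had mean levels from 0 to 3735 CPM with a median of 52.4 CPM. Of the 26 genes, 6 lay above Mir24-2 (224 CPM) and 9 above Mir24-1 (118 CPM). Of the pairs, 2 are named after their values were seen. Mir92-1 had 13526 and 15938 reads and its partner Mir92-2 906 and 1138 reads in replicates 1 and 2. Mir16-1 had 2636 and 3917 reads and its partner Mir16-2 372 and 656. In the 10 pairs with at least 10 reads of both genes in each library, the higher gene over the lower by mean CPM ran from 1.01 to 14.5 with a median of 2.34. The miR-24 ratio of 1.90 was above that of 5 of these pairs and below that of the other 5, and no test was made.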
